A study of Rattus norvegicus with 24 samples.

Results

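The genes described here encode the core of G protein signalling: the alpha (Gna), beta (Gnb) and gamma (Gng) subunits of heterotrimeric G proteins, the membrane and soluble adenylyl cyclases (Adcy), and the regulators of G protein signalling (Rgs). They were chosen by gene symbol alone, among protein-coding genes, which gave 63 of the 35032 genes in the count table: 17 Gna, 5 Gnb, 11 Gng, 10 Adcy and 20 Rgs genes. The study took 2 brain regions from male rats of the Sprague-Dawley strain, the hypothalamic paraventricular nucleus (PVN) and the central amygdala (CEA), and sequenced their mRNA in 24 libraries, as 8 groups of 3. The NC group had no operation, the HT group had a partial hepatectomy, the EA group had hepatectomy with electroacupuncture at ST 36 and SP 6, and the SEA group had hepatectomy with needles inserted and no current. Rats were obtained at 7 weeks of age and kept for a further 1 week before the experiment. All were habituated to restraint and restrained, the NC group included. HT, EA and SEA rats are called operated below. Tissue was taken a day after the last stimulation. Nothing in the labels ties the PVN and CEA libraries to individual rats, so p-values measure the spread between these libraries.

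A receptor that has bound its ligand makes the alpha subunit exchange GDP for GTP and part from the beta-gamma pair. Alpha subunits of the Gs class (Gnas, Gnal) stimulate adenylyl cyclases, those of the Gi class (Gnai1, Gnai2, Gnai3, Gnao1, Gnaz) inhibit cyclases, and the Gq class (Gnaq, Gna11, Gna14, Gna15) activates phospholipase C beta. Gna12 and Gna13 form the G12 class. RGS proteins speed up the hydrolysis of GTP and so shorten the signal. In striatal medium spiny neurons some dopamine and adenosine receptors are known to signal through Gnal, Gng7 and Adcy5, and Rgs9 is a regulator there.

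Gng7, Rgs9 and Adcy5, which were far higher in the CEA, and Gng2, which was higher in the PVN, did not overlap between regions. Their upstream sequences are shown as examples. Each is the 250 bases before the RefSeq gene start (build GRCr8), with matches to the cyclic AMP response element TGACGTCA, its core TGACG or the GC box GGGCGG on either strand in capitals. The windows are chr7:9365139-9365388, plus strand for Gng7, chr10:94770388-94770637, minus strand for Rgs9, chr11:79123344-79123593, minus strand for Adcy5 and chr15:4365551-4365800, plus strand for Gng2.
Gng7: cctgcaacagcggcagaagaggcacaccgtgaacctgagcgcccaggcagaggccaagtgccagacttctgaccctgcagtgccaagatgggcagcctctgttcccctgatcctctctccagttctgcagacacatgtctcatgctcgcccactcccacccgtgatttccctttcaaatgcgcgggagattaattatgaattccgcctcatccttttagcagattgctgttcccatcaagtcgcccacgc
Rgs9: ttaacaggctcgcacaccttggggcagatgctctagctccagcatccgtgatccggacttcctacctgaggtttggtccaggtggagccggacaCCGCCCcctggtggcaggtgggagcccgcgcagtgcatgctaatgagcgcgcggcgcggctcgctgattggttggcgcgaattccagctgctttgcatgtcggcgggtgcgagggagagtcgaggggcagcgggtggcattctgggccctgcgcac
Adcy5: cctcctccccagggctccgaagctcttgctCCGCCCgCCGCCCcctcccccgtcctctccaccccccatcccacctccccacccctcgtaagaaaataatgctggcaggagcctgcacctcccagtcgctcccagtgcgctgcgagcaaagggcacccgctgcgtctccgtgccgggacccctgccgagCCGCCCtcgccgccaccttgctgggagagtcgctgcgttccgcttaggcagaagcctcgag
Gng2: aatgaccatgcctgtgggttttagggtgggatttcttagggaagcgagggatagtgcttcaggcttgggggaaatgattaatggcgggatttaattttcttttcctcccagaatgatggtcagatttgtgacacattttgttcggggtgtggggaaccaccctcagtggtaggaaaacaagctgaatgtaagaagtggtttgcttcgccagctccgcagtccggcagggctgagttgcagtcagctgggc
All capitals above are GC boxes: 1 in Rgs9, 3 in Adcy5, 0 in Gng7 and 0 in Gng2. None of the 4 windows held TGACG. Promoters were found for 50 of the 62 member symbols, as 52 windows. A GC box was in 27 of these 52 windows (51.9%) against 30.5% of the 33469 windows in the RefSeq table, and the core TGACG was in 11 (21.2%) against 18.2%. The full element was in 1 window (1.92%), that of Gnao1, against 1.59% of all windows. Of the members higher in the CEA of operated rats, 14 of 24 windows held a GC box, and of those higher in the PVN, 6 of 12 did. Gnas alone has several of these 12 windows, with 3, 1 and 0 GC boxes. These are matches of letters, not binding sites.

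Levels of different genes were compared as CPM (counts scaled to a common total in each library) per kilobase of the gene length in the table, averaged over the 12 libraries of a region. Among beta subunits the order was the same in both regions. Gnb1 was highest, at 304 ± 32.8 CPM per kilobase in the PVN and 303 ± 34.9 in the CEA (SD, n = 12), followed by Gnb2, Gnb5 and Gnb4, and Gnb3 was lowest, at 0.461 ± 0.239 and 0.412 ± 0.322. The gamma subunits were ordered differently. Gng3, a neuronal gamma subunit, was highest in the PVN, at 153 CPM per kilobase, with Gng2 next at 99.8 ± 3.06. Gng7 was highest in the CEA, at 309 ± 112 CPM per kilobase, with Gng10 at 110 ± 12.3 and Gng3 at 103 ± 14.3, and these last 2 lay within their spread of each other. Gng7 made up a median of 43.6% of the summed gamma subunit level per kilobase in the CEA (range 31.0 to 61.5%) and 2.71% in the PVN (2.07 to 3.23%).

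Adcy5, a cyclase inhibited by calcium, was the highest cyclase per kilobase in both regions, at 169.7 ± 50.4 in the CEA and 32.8 ± 4.24 in the PVN, where Adcy2 followed within the spread at 30.8 ± 2.08. Adcy5 made up a median of 61.0% of the cyclase level per kilobase in the CEA and 24.9% in the PVN. Adcy10, the soluble cyclase, was lowest in both, at 0.395 ± 0.195 and 0.132 ± 0.0510. Among RGS genes, Rgs4 (132 ± 41.2 CPM per kilobase), Rgs9 (107 ± 42.6) and Rgs5 (99.2 ± 22.3) led in the CEA and overlapped in spread. Rgs5 (60.2 ± 16.6) and Rgs4 (58.1 ± 7.36) led in the PVN, while Rgs9 stood at 9.14 ± 1.30 there. Of the alpha subunits, a Gnas entry (ENSRNOG00000047374) was highest in the PVN at 207 ± 37.0, and Gna12 was highest in the CEA at 173 ± 21.6, close to Gnao1 at 160 ± 24.7. The table holds 2 Gnas entries, ENSRNOG00000047374 and ENSRNOG00000025889, that overlap on one strand, so how reads were split between them is uncertain. Gna12 also overlaps other genes on its strand.

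**Figure D1:**
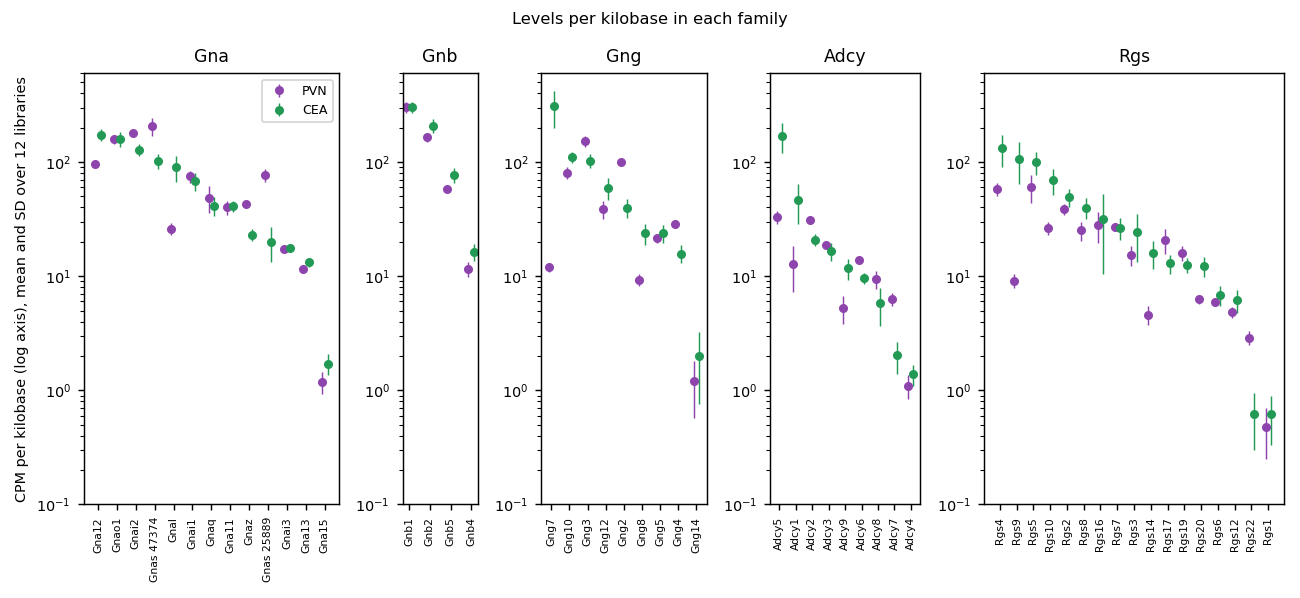
Mean level of each member in CPM per kilobase (log axis) with SD over 12 libraries, for the PVN and the CEA, by family; members under 0.5 CPM per kilobase in both regions are not drawn. Gng7 stands at 11.9 in the PVN and 309 in the CEA, while Gnb1 stands at 304 and 303.

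Some members were barely detected. Rgs21 had 0 counts in all 24 libraries, which allows up to 0.158 to 0.237 CPM by library. Gnat3, the alpha subunit of taste cells, had 7 counts in all and was at 0 in 21 libraries, Gng13 had 15 counts and Rgs13 had 16. Rgs18, Gnat1, Gnat2 and Gng14 stayed below 1 CPM in every library. Gng11 reached 3.92 CPM in 1 library and was at 0 in 5. These limits cover counting error only.

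The CEA was compared with the PVN in NC rats (3 against 3) and in operated rats (9 against 9, with treatment as a covariate) by edgeR's quasi-likelihood test over all genes, and a gene was called at an adjusted p under 0.05. In NC rats 54 of the 63 members passed the filter on low counts, and 28 were called, 17 of them higher in the CEA and the other 11 in the PVN, where 26.4% of all 16748 genes tested were called. In operated rats 42 of 55 were called, 26 toward the CEA and 16 toward the PVN, against 52.8% of all genes tested. All 28 members called in NC rats were also called in operated rats with the same sign, which is 66.7% of the 42. Without PVN NC 1 and NC 3, which differed from the other PVN libraries in several members, 4 members were called in NC rats, where 2.46% of all genes were called. That fit had 1 PVN library left, its spread came from the 3 CEA libraries alone, and it was chosen after seeing the data. These comparisons share no libraries. In the direction of the CEA 12.7% of all genes were called in NC rats and 27.2% in operated rats, and in the direction of the PVN 13.7% and 25.6%. The regions did not overlap in CPM for 45.3% of all genes in NC rats and 19.8% in operated rats. The 14 members that passed in operated rats and not in NC rats were Gnaq, Gna13, Gna14, Gna15, Gnb2, Gnb4, Gnb5, Gng10, Adcy4, Adcy8, Rgs3, Rgs12, Rgs17 and Rgs19, and whether the comparisons differ for them was not tested. The median absolute log2 fold change was 0.71 over members and 0.36 over all genes in NC rats, and 0.56 against 0.31 in operated rats. In bulk tissue, fewer cells of a type cannot be told apart from less RNA per cell.

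**Figure D2:**
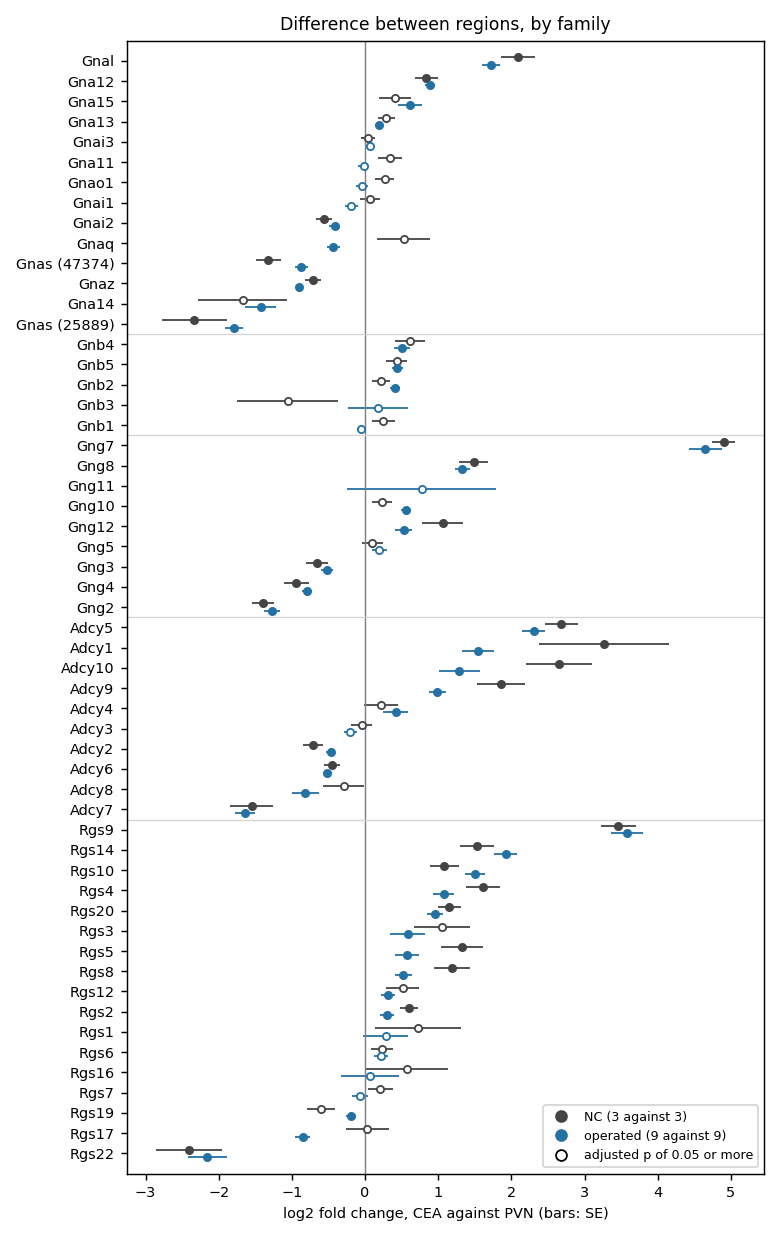
Log2 fold change of each tested member, CEA against PVN, with its SE, in NC and in operated rats; filled points passed an adjusted p of 0.05. Gng7 (4.90 and 4.65) lies farthest to the right, and Rgs22 and a Gnas entry lie farthest to the left in NC rats.

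Gng7, a gamma subunit, had the largest log2 fold change of the members tested. Its level was 29.0 to 40.7 CPM in the PVN libraries and 427 to 1520 CPM in the CEA libraries, and the regions did not overlap. In NC rats it had 32.0 ± 2.66 CPM in the PVN and 957 ± 152 in the CEA (SD, n = 3), a log2 fold change of 4.90 ± 0.16 (SE, edgeR adjusted p = 4.0e-05), and in operated rats the log2 fold change was 4.65 ± 0.23. Of the other gamma subunits, Gng8 and Gng12 were also higher in the CEA in NC rats, by log2 fold changes of 1.48 ± 0.20 and 1.06 ± 0.28. Gng2 went the other way. PVN libraries had 330 to 364 CPM and CEA libraries 72.0 to 168, with CEA HT 1 lowest, and its log2 fold change was -1.39 ± 0.15 in NC rats and -1.28 ± 0.11 in operated rats. Gng4 (-0.94 ± 0.17) and Gng3 (-0.65 ± 0.15) were higher in the PVN as well. The NC calls of Gng12 and Gng3 were each lost in 4 of 6 fits that left out 1 NC library. Gng10 was called in operated rats (0.56 ± 0.07), and Gng5 in neither comparison.

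The stimulatory alpha subunits split by region. Gnal, the olfactory and striatal form, ranged from 30.1 to 51.7 CPM over PVN libraries and from 103 to 227 over CEA libraries, without overlap, and log2 fold changes of 2.09 ± 0.23 in NC rats and 1.72 ± 0.12 in operated rats (edgeR adjusted p = 0.0016 and 2.0e-09). Both entries of Gnas, the gene of the widely expressed form, were higher in the PVN. Which transcripts of the gene each entry counts was not tested. ENSRNOG00000047374 had 891 ± 202 CPM in the PVN and 357 ± 9.06 in the CEA of NC rats (log2 fold change -1.32 ± 0.17), and ENSRNOG00000025889 had 139.7 ± 31.1 and 27.7 ± 18.7 (-2.33 ± 0.44, and -3.04 without CEA NC 1). Of the inhibitory class, Gnai2 (-0.56 ± 0.11) and Gnaz (-0.71 ± 0.11) were higher in the PVN, and Gnai1, Gnai3 and Gnao1 were called in neither comparison. Gnai1 (-0.19 in operated rats) was called there in 3 of 24 alternatives, among them without CEA EA 2 (-0.25, edgeR adjusted p = 0.00517). None of the 4 Gq members was called in NC rats. Without PVN NC 2, Gnaq (1.14, edgeR adjusted p = 0.00245) and Gna11 (0.53, edgeR adjusted p = 0.0139) were called toward the CEA. Gnaq was higher in the PVN of operated rats (-0.43 ± 0.09), as was Gna14, at 1.36 ± 0.319 CPM there and 0.482 ± 0.145 in the CEA, while Gna15 was higher in the CEA (0.61 ± 0.17). Gna12 was higher in the CEA in NC rats (0.84 ± 0.16), and Gna13 joined it in operated rats (0.19 ± 0.06).

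No beta subunit was called in NC rats, though Gnb5 (0.43 in NC rats) was called in 3 of 12 alternatives and Gnb1 (0.25) in 1. In operated rats Gnb2 (0.41 ± 0.07), Gnb4 (0.51 ± 0.11) and Gnb5 (0.44 ± 0.08), the partner of the R7 RGS proteins, were higher in the CEA, while Gnb1 differed by -0.05 ± 0.07 and did not pass.

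The cyclases moved in both directions. Adcy5 ranged from 108 to 177 CPM over PVN libraries and from 489 to 1300 over CEA libraries, without overlap, and a log2 fold change of 2.68 ± 0.22 in NC rats and 2.30 ± 0.15 in operated rats (edgeR adjusted p = 0.00057 and 8.7e-10). Adcy6, the other cyclase inhibited by calcium, was higher in the PVN (-0.45 ± 0.11 and -0.52 ± 0.06), and its NC call was lost in 4 of 6 fits that left out 1 NC library. Adcy1, stimulated by calcium and calmodulin, had 43.3 to 246 CPM in the CEA and 3.61 to 60.5 in the PVN, so the regions overlapped at CEA HT 2. Its log2 fold change was 3.27 ± 0.89 in NC rats and 1.55 ± 0.22 in operated rats. Leaving out 1 NC library moved the NC value between 2.78 (without PVN NC 1) and 5.09 (without PVN NC 2), and the call was lost in 4 of these 6 fits (edgeR adjusted p up to 0.0991). Adcy9 (1.86 ± 0.33 and 0.99 ± 0.12) and Adcy10 (2.65 ± 0.45 and 1.29 ± 0.28) were higher in the CEA too. Adcy7 had 17.5 to 30.1 CPM in PVN libraries against 4.84 to 11.9 in CEA libraries (-1.55 ± 0.30 and -1.64 ± 0.14), and Adcy2, a cyclase stimulated by beta-gamma, was higher in the PVN (-0.71 ± 0.14 and -0.47 ± 0.06). Adcy8 was called in operated rats (-0.82 ± 0.19), and Adcy3 in neither.

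**Figure D3:**
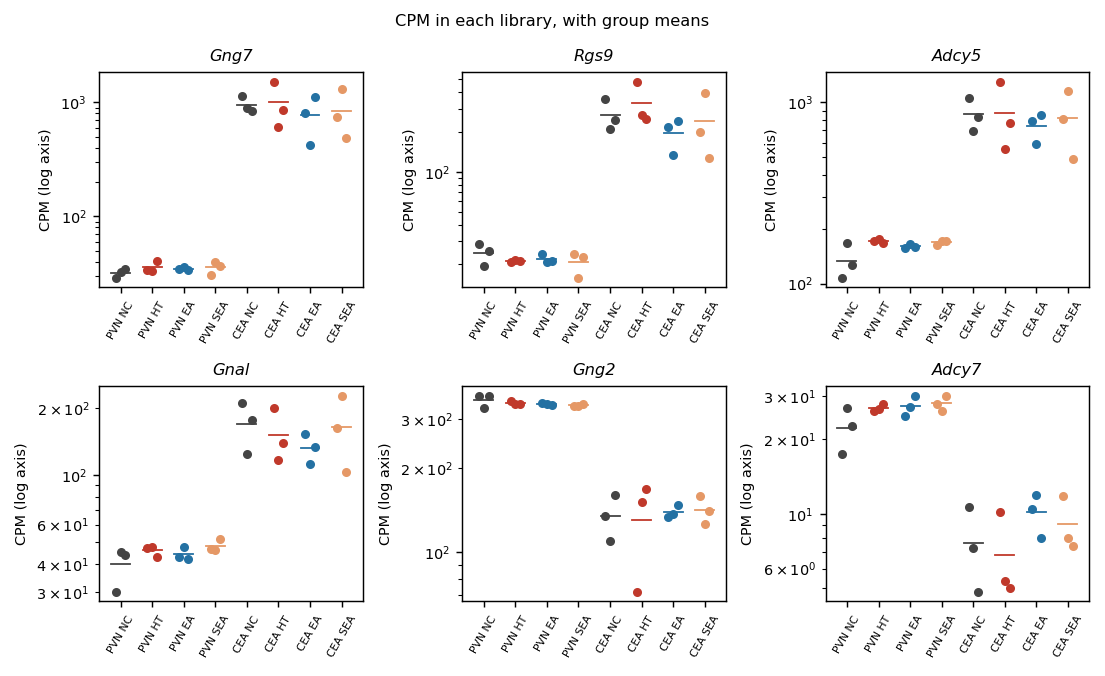
CPM (log axis) of 6 members in each of the 24 libraries, by region and treatment, with a line at each group mean. Gng7, Rgs9, Adcy5 and Gnal are higher in every CEA library than in any PVN library, and Gng2 and Adcy7 are lower.

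Of 17 RGS genes tested in NC rats, 8 were higher in the CEA (12.7% of all genes), 1 was lower (13.7%) and 8 did not pass. In operated rats 10 were higher (27.2% of all genes), 3 were lower (25.6%) and 4 did not pass. Rgs9 ranged from 15.9 to 28.6 CPM over PVN libraries and from 128 to 478 over CEA libraries, without overlap, and log2 fold changes of 3.46 ± 0.24 in NC rats and 3.58 ± 0.22 in operated rats (edgeR adjusted p = 0.00039 and 2.5e-10). It was the 1 called of the 3 tested members of its R7 subfamily, since Rgs6 and Rgs7 were called in neither comparison. Rgs4 (1.61 ± 0.23 and 1.08 ± 0.14), Rgs14 (1.53 ± 0.24 and 1.92 ± 0.16), Rgs10 (1.08 ± 0.20 and 1.50 ± 0.13) and Rgs20 (1.15 ± 0.16 and 0.95 ± 0.10) were also higher in the CEA. Rgs5, a gene of pericytes, Rgs8 and Rgs2 followed, with log2 fold changes of 1.33 ± 0.29, 1.19 ± 0.25 and 0.60 ± 0.13 in NC rats and 0.58 ± 0.16, 0.52 ± 0.11 and 0.30 ± 0.09 in operated rats. The NC calls of Rgs5 and Rgs8 were lost without PVN NC 3 (1.17 and 1.19). Rgs22 was higher in the PVN, with 12.2 to 20.1 CPM there and 0.361 to 5.83 in the CEA (-2.41 ± 0.45 and -2.16 ± 0.26). Without CEA NC 2, its NC value was -3.12. Rgs17 differed by 0.03 ± 0.29 in NC rats, where the PVN libraries were spread widely, and by -0.86 ± 0.10 in operated rats. Rgs16 did not pass in either (0.57 ± 0.56 and 0.07 ± 0.40), and was called in NC rats without CEA NC 1 (1.02, edgeR adjusted p = 0.0453).

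The other genes of the pathway are counted against the same all-gene shares, 12.7% higher and 13.7% lower in the CEA of NC rats and 27.2% and 25.6% in operated rats. Of 15 phosphodiesterases tested, which degrade cyclic nucleotides, 8 were higher in the CEA and 0 lower in NC rats, and 8 were higher and 1 lower (Pde4d, -0.35 ± 0.14) in operated rats. Pde10a had 362 ± 123 CPM in the CEA and 20.6 ± 11.0 in the PVN of NC rats (log2 fold change 4.13 ± 0.44), and Pde1b had 500.0 ± 125 and 79.2 ± 13.8 (2.66 ± 0.22). Of 8 other signalling genes tested, among them partners of G proteins and RGS proteins, Ppp1r1b, which encodes DARPP-32, was called in NC rats (4.23 ± 0.23). In operated rats Ppp1r1b (4.34 ± 0.24), Gpsm1 (0.41 ± 0.09) and Gpsm2 (0.31 ± 0.12) were higher in the CEA and Gpr179 was lower (-1.99 ± 0.40).

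Of 9 subunits and inhibitors of protein kinase A, 1 was higher in the CEA, 3 were lower and 5 did not pass in NC rats, and 2 were higher and 7 lower in operated rats. In NC rats Prkar1b had a log2 fold change of -0.98 ± 0.16 and Pkib one of -2.01 ± 0.21. Of 4 phospholipase C beta genes, Plcb1 was higher in NC rats (1.50 ± 0.28), and Plcb1 (0.97 ± 0.14) and Plcb2 (0.57 ± 0.16) were higher in operated rats. Of 4 GIRK channel genes, Kcnj5 was lower in NC rats (-1.31 ± 0.19), and Kcnj5 (-0.81 ± 0.10) and Kcnj6 (-1.69 ± 0.31) were lower in operated rats. Of 7 receptor kinases and arrestins, Grk5 was higher (24.6 ± 0.236 CPM against 12.3 ± 5.46) and Arrb2 lower (-0.88 ± 0.15) in NC rats, and 2 were higher and 4 lower in operated rats.

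Several lists of markers of other cells and regions differed between the PVN and the CEA, and others did not. Of 7 astrocyte markers 0 were called in NC rats, and 2 were higher and 2 lower in the CEA of operated rats. Of 9 thalamus markers 0 were higher and 1 lower in NC rats, and 2 and 3 in operated rats. Cortical and hippocampal markers were higher for 2 of 7 and 3 of 8, and 0 of 4 blood markers were called in either. All 12 striatum markers tested, among them Drd1, Drd2 and Adora2a, were higher in the CEA in both comparisons, and their summed level was 483 to 654 CPM over PVN libraries and 2860 to 8640 over CEA libraries. Pde10a and Ppp1r1b are also on that list. All 8 oligodendrocyte markers were higher in the CEA, with sums of 27000 to 44600 CPM against 10200 to 17100. Of vascular and immune markers, 5 of 6 endothelial markers were higher in the CEA in both comparisons, with sums of 188 to 412 CPM there and 190 to 253 in the PVN. Microglia markers were higher for 3 of 8 in NC rats and 8 of 8 in operated rats (339 to 596 CPM against 262 to 352), and pericyte and smooth muscle markers for 3 of 8 and 7 of 8, with sums of 182 to 268 CPM in the CEA and 145 to 172 in the PVN. All 11 neuroendocrine hypothalamus markers tested were higher in the PVN (729 to 1710 CPM against 39.6 to 203). Of 8 central amygdala markers tested, 2 were higher and 4 lower in the CEA of NC rats, and 3 were higher and 4 lower in operated rats. Their sums overlapped, at 390 to 955 CPM in the CEA (median 693) and 489 to 697 in the PVN (median 582), so that list did not separate the regions. Choroid plexus markers were at 1830 CPM in CEA SEA 2, 1080 in CEA NC 2 and 389 in CEA EA 1, against 8.03 to 27.4 in the other CEA libraries, and mitochondrial genes took 3.80% of counts in CEA EA 2 (a second header line in the table exchanges the numbers of CEA EA 2 and 3) against 10.1 to 14.4% in the rest. Without CEA EA 1, EA 2 and SEA 2, 41 members were called in operated rats, 39 of them shared with the 42, where 48.8% of all genes were called. The part of these other cells in the regional differences was not tested.

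Members were also set beside the marker sums across the 12 CEA libraries, and the striatum and thalamus lists are described most closely. With the central amygdala list, 8 of 53 members had a Pearson r at an adjusted permutation p under 0.05. The cortical and microglia lists had 4 each, the endothelial list 3, and the other lists at most 1. The share of all genes was not computed for these. The striatum and thalamus sums left gaps between sets of libraries, so no coefficient over all 12 is given for them. The striatum sums put the 12 libraries in separate sets: 2 low libraries (CEA SEA 3 and CEA EA 2), 7 between 4708 and 5738 CPM, and 3 high ones (CEA NC 1, CEA HT 1 and CEA SEA 2). Gng7 had 427 to 491 CPM in the 2 low libraries, 614 to 1110 in the 7 and 1130 to 1520 in the 3 high ones. Rgs9 had 128 to 133 CPM in the 2 low libraries, up to 270 in the 7 and 355 to 478 in the 3, and Gnal had 103 to 112, 117 to 176 and 199 to 227. These 3 of the 53 members tested in the CEA stepped up from set to set without overlap, as did 0.862% of all 17046 genes tested there, and 0 members stepped down (0.546% of all genes). Adcy5 overlapped between the low libraries (489 to 586 CPM) and the 7 (550 to 847). Within the 7 libraries Rgs9 had Pearson r = 0.773 (exact permutation p = 0.0478, adjusted 0.757 over all genes) and Spearman coefficient = 0.857 (exact permutation p = 0.0238, adjusted 0.734), with r = 0.580 without the 2 libraries farthest from the median. Gng7 had r = -0.434 (exact permutation p = 0.337) and Spearman coefficient = -0.357 (exact permutation p = 0.444) there, so its relation to the striatum sum rests on the libraries at the ends. At an unadjusted exact permutation p under 0.05 for r, 3 members passed within the 7 (6.46% of all genes), and 0 members and 0 genes passed after adjustment.

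Split at the widest step in CPM, thalamus marker sums lay between 81.6 and 630 CPM in 7 CEA libraries and between 1034 and 1272 CPM in the other 5. The striatum sums were split on a log2 scale instead. On that scale the widest thalamus step lay between 81.6 and 170 CPM and would set CEA HT 1 alone apart. Rgs16, an R4 family gene, had 10.8 to 80.2 CPM in the 7 and 105 to 146 in the 5. Rgs3 had 53.9 to 173 and 179 to 214 CPM, and Rgs4 had 249 to 381 and 428 to 602. Adcy1, Adcy8, Rgs7 and Rgs8 were also higher in each of the 5 than in any of the 7, which made 7 of 53 members against 3.16% of all genes. Sums of cortical and hippocampal excitatory neuron markers separated the same sets, at 11.2 to 92.0 CPM in the 7 and 108 to 353 in the 5. The central amygdala list shares Prkcd with the thalamus list. Its sums were 772 to 911 CPM in the 5 and 390 to 614 in the 7, apart from CEA HT 2 at 955. The 3 libraries with the lowest thalamus sums were the 3 with the highest striatum sums, and the part of each list was not tested. Rgs14 was at 48.2 to 68.0 CPM in the 7 and 23.9 to 46.2 in the 5. Adcy2 and Rgs10 were lower in the 5 without overlap as well, which made 3 members against 1.04% of all genes.

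Within the 7 libraries Rgs16 had r = 0.983 with the thalamus sum (exact permutation p = 0.000198, adjusted 0.104 over all genes) and a Spearman coefficient of 1.0 (exact permutation p = 0.000397, adjusted 0.0939), with r = 0.990 without the 2 libraries farthest from the median. Rgs14 had r = -0.924 (exact permutation p = 0.00278, adjusted 0.165) and a Spearman coefficient of -0.857 (exact permutation p = 0.0238, adjusted 0.249). Adcy1, Rgs4 and Rgs8, which separated the sets, had r of -0.52, 0.36 and -0.33 within the 7. An unadjusted exact permutation p under 0.05 for r was reached by 17 of 53 members, where 14.3% of all genes did, and 0 members and 0 genes passed after adjustment. The thalamus sums overlapped between treatments, at 242 to 1160 CPM in NC, 81.6 to 1066 in HT, 285 to 1134 in EA and 170 to 1272 in SEA.

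**Figure D4:**
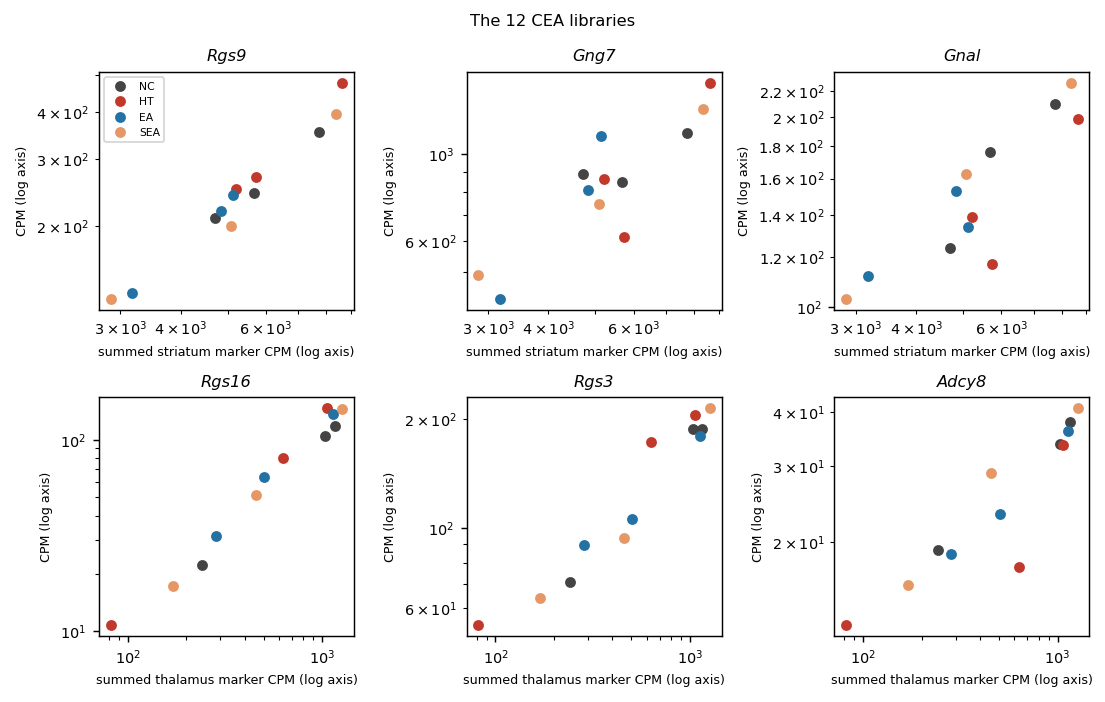
CPM of 6 members against the summed CPM of striatum or thalamus markers in the 12 CEA libraries (both axes log), coloured by treatment. Rgs16 rises from 10.8 CPM at a thalamus sum of 81.6 CPM to 145 at 1270, and libraries of one treatment lie far apart.

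The next comparisons asked whether hepatectomy or electroacupuncture changed these genes. By edgeR's quasi-likelihood test 0 members were called in HT against NC, EA against HT, SEA against HT or EA against SEA in either region, and 0 in operated against NC. The share of all genes called was 0.012% in PVN HT against NC (53 members tested), 0.0961% in PVN EA against HT, 0.0639% in PVN operated against NC and 0% in the other comparisons. At an unadjusted p under 0.05, 8 of 53 members passed in PVN HT against NC (11% of all genes), 4 in PVN EA against HT (5.67%), 2 in PVN SEA against HT (4.38%) and 6 of 54 in PVN EA against SEA (5.21%). In the CEA 1, 2, 2 and 0 passed in the same order, where 3.75%, 3.19%, 3.07% and 1.99% of all genes did, and 1 passed in operated against NC (2.82%). The difference between regions in the HT effect and in the EA effect was called for 0 members (8 and 4 at an unadjusted p under 0.05, against 12.1% and 4.52% of all genes). By DESeq2, 13 of 54 members were called in PVN operated against NC at an adjusted p under 0.05, where 13.5% of all genes were called.

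In the PVN the NC libraries were unlike each other. Adcy1 had 3.61, 49.3 and 7.85 CPM in NC 1, 2 and 3, and 39.4 to 60.5 in the 9 operated libraries. Gnaq had 31.8, 74.1 and 26.2 CPM against 61.4 to 78.7, Rgs17 had 26.3, 53.4 and 25.1 against 50.6 to 63.0, and Adcy9 had 10.3, 24.4 and 12.4 against 22.0 to 30.0. In each of these genes NC 1 and NC 3 lay below every operated library and NC 2 lay within their range. Mitochondrial genes took 8.77% and 8.62% of counts in NC 1 and NC 3, 7.58% in NC 2 and 7.07 to 8.01% in operated libraries. Neuroendocrine marker sums were 1495 and 1707 CPM in NC 1 and NC 3, 1263 in NC 2 and 729 to 1438 in operated libraries. In HT against NC, 5 of 11 such markers were lower and 3 of 9 thalamus markers higher at an unadjusted p under 0.05, with 0 called. Blood markers were lower for 2 of 4 and astrocyte markers for 2 of 7 there, also with 0 called. Blood sums were 968.5 to 1334 CPM in NC and 511 to 768 in HT. In operated against NC, 1 of 8 pericyte and smooth muscle markers was called, as higher. The part of these in the split was not tested. Gng10 and Rgs19, which encodes a regulator of Gi signalling, ran the other way, with Rgs19 at 27.3, 21.6 and 26.2 CPM in NC and 18.1 to 20.1 in operated libraries. In operated against NC, 23 of 54 members reached p under 0.05 before adjustment, where 29.8% of all genes did. Of these, 17 were toward operated rats (15.6% of all genes) and 6 toward NC rats (14.2%). Operated and NC libraries did not overlap for 2 members, against 4.18% of all genes. Rgs19 had the smallest p (log2 fold change -0.40 ± 0.08, edgeR adjusted p = 0.0772), and Rgs17 had 0.70 ± 0.19 (edgeR adjusted p = 0.0778). Alternatives gave -0.49 to -0.19 for Rgs19 and 0.088 to 1.16 for Rgs17, and each was called in 2 of 18. Without PVN NC 2, 19 members were called in HT against NC, where 20.2% of all genes were called, and 26 in operated against NC (33.7%). Without PVN NC 1 and NC 3, 0 were called in both, with the lone NC library assumed to vary like the other groups.

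**Figure D5:**
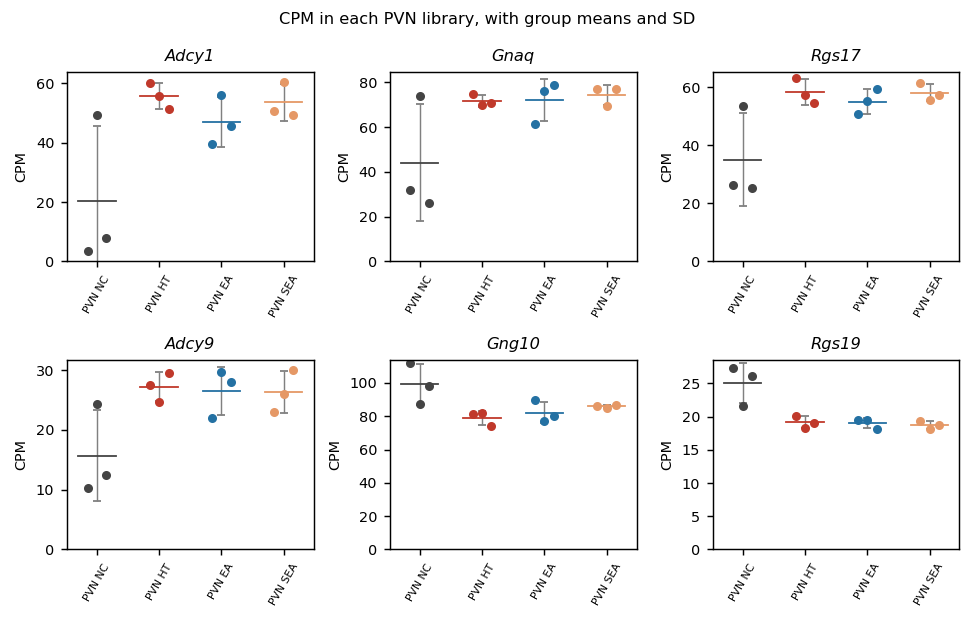
CPM of 6 members in each of the 12 PVN libraries, with a line at each group mean and bars for SD over 3 libraries; the bar of Adcy1 in NC is cut at 0. In Adcy1, Gnaq, Rgs17 and Adcy9 the NC libraries split, with 2 below all operated libraries and 1 among them.

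Rgs2, an inhibitor of Gq signalling, had the smallest p among members in PVN EA against HT. It had 41.9, 36.0 and 36.2 CPM in EA, 31.4, 29.1 and 32.2 in HT and 34.0, 29.6 and 32.3 in SEA, so every EA library was above every HT and SEA library. Blood marker sums were 788 to 1306 CPM in EA, 511 to 768 in HT and 728 to 1020 in SEA. Of neuroendocrine markers 3 of 11, and of choroid plexus markers 2 of 5, were higher in EA than in HT at an unadjusted p under 0.05, with 0 called. Their part in the Rgs2 value was not tested. The log2 fold change was 0.30 ± 0.09 against HT (edgeR adjusted p = 0.598) and 0.25 ± 0.09 against SEA (edgeR adjusted p = 0.917), and groups without overlap made up 11.3% and 10.1% of all genes tested in these comparisons. In PVN EA against HT, Rgs20 (0.26 ± 0.09), Rgs3 (-0.30 ± 0.10) and Gna11 (-0.14 ± 0.06) also had an unadjusted p under 0.05. In PVN EA against SEA, Rgs14 (0.36), Adcy8 (-0.26), Gna11 (-0.16) and Gnb1 (-0.12) did too, and in PVN SEA against HT, Gng4 (0.18) and Gnai3 (0.14). In PVN HT against NC the smallest p per direction were those of Rgs17 (0.73), Rgs3 (0.48), Rgs4 (0.33), Rgs19 (-0.39) and Gng10 (-0.33). In the CEA, Gnaq had 42.9 ± 10.4 CPM in HT and 63.8 ± 5.39 in NC (log2 fold change -0.55 ± 0.20, edgeR adjusted p = 0.918). HT 1, 2 and 3 had 48.0, 31.0 and 49.8 CPM, and alternatives to HT against NC gave -0.67 to -0.35. CEA HT 2 was also the lowest CEA library for Adcy1, Adcy9, Rgs5 and Rgs17. In the same comparison 4 of 8 microglia markers were higher in HT, and 2 of 7 astrocyte and 2 of 6 choroid plexus markers lower, at an unadjusted p under 0.05, with 0 called. Microglia sums were 484 to 596 CPM in HT and 339 to 453.5 in NC, and the part of these markers in the Gnaq value was not tested. Rgs9 had 197 ± 57.3 in EA and 333 ± 127 in HT (-0.77 ± 0.31, edgeR adjusted p = 0.93), and alternatives gave -0.93 to -0.41. It had 478, 270 and 250 CPM in HT 1, 2 and 3 and 219, 133 and 241 in EA 1, 2 and 3. CEA EA 2 was the library with 3.80% of counts in mitochondrial genes. The striatum marker sums were also apart in EA and HT, at 3173 to 5127 CPM in EA and 5217 to 8642 in HT, and their part in the Rgs9 value was not tested. Rgs6 (0.45) went the other way in CEA EA against HT at an unadjusted p under 0.05. Gnaq (0.47) and Gnai1 (0.43) in CEA SEA against HT and Rgs2 (-0.33) in CEA operated against NC reached that threshold too.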

How the data were processed

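mRNA was measured in 24 strand-specific libraries, grouped by region and treatment from the sample titles. The deposited values are raw read counts per gene, made by the authors with HISAT2 and featureCounts. Versions, the use of strand and the treatment of multi-mapped reads are not given in the sources used here. The study's methods name a rat assembly and the submitters' processing notes list a human build. The table names none. Its gene ends on chromosome 1 reach 282724300, its build was not settled and none of its coordinates are printed. 1 stray header line was dropped. It exchanges the numbers of CEA EA 2 and 3, and the first header and sample titles were followed. Total counts ran from 13152772 to 18607032 per library, and a count of 0 allows 3 counts.

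Tests ran in R 4.3.3 with edgeR 4.0.16 (filterByExpr, TMM, two-sided quasi-likelihood test, Benjamini-Hochberg over all genes tested), and DESeq2 1.42.0 as an alternative. Scripts were tested on simulated data. CPM were scaled by TMM factors over 24 libraries. Correlations used log2(CPM + 0.1) and were chosen after the data were seen. Members, lists and tests were chosen with earlier results of these data known. Named genes were up to 3 largest called without overlap per family and direction between regions and a set of 27 genes fixed by name. Up to 2 genes per pathway list and direction were added. In treatment comparisons they were up to 3 smallest p per direction among those under 0.05 before adjustment. Those of PVN operated against NC and of the differences between regions in effect are not all printed. Other genes were named to account for every member.

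Replicate numbers were checked for pairing. All 3 correlations of same-numbered libraries reached at least 0.101 for PVN NC with CEA NC (0.322, 0.101 and 0.152). They did so for CEA NC with CEA HT too (0.309, 0.184 and 0.369), and for no other groups. Some others had 3 smaller positive sets of values, such as PVN HT with PVN SEA (0.0112, 0.101 and 0.117). CEA NC and CEA HT are different rats, so such values do not show that libraries share an animal. Alternatives were other normalization, no filter, all 24 libraries in one fit, a replicate block and each replicate left out.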

Additional observations from a re-analysis of the deposited data

How the results depend on the processing

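The count of members called between regions kept within 1.5 times under DESeq2, DESeq2 size factors, no filter on low counts, all 24 libraries in one fit and the replicate block. Leaving out one library gave 23 (without PVN NC 3, 14.9% of all genes) to 35 (without PVN NC 2, 36.1%) members in NC rats and 40 to 44 in operated rats, where 49.3 to 54.9% of all genes were called. Leaving out PVN NC 1 and NC 3 together, chosen after seeing the data, gave 4 in NC rats, where 2.46% of all genes were called, with 1 PVN library and the spread from CEA libraries alone. Leaving out one library gave 0 to 19 members in PVN HT against NC, 0 to 26 in PVN operated against NC and 0 to 4 in the difference between regions of the HT effect, with the highest counts without PVN NC 2 (20.2%, 33.7% and 3.93% of all genes). DESeq2 called 13 in PVN operated against NC (13.5% of all genes), and at an unadjusted p under 0.05 it passed 12 in PVN HT against NC (11.3%) and 3 in PVN EA against HT (4.08%). The cause was not tested.

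The replicate block gave 30 members between regions in NC rats (27.5% of all genes), where same-numbered libraries were positively correlated, and changed no other count by over 1.5 times. Under the replicate block Rgs16 turned to -0.27 in operated rats. Without PVN NC 1 and NC 3, Gnaq (-0.17) and Gnai1 (-0.15) between regions in NC rats and Gnas ENSRNOG00000047374 (0.016) in PVN operated against NC changed sign. Leaving out one library gave Gnai1 -0.019 to 0.22 between regions in NC rats, and in operated rats Gnao1 -0.096 to 0.010, Gna11 -0.046 to 0.034 and Rgs16 -0.21 to 0.23. None of these values that changed sign was called. Of the 9 members removed by the filter in NC rats, 8 entered the fit without it, with 0 called, and Rgs21 had 0 counts.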
